A study of Mus musculus with 4 samples.

Results

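The potassium channel genes described here were the genes whose symbol begins with Kcn followed by a family letter and a number. A gene was kept where it had at least 10 unique molecular identifiers (UMIs, counts of single captured RNA molecules) in each of the 4 deposited matrices. Of 33696 genes listed, 98 had such a symbol and 82 passed. The genes nearest the minimum on the kept side were Kcnmb1 with 12 UMIs in its lowest library, Kcns1 with 13 and Kcnmb3 with 16. The nearest on the other side were Kcne2 with 8 and Kcnk18 and Kcnj8 with 7 each. The 82 genes took 1.34%, 1.29%, 1.28% and 1.22% of the UMIs of the libraries vehicle 1, vehicle 2, ImP 3 and ImP 4, which is the order of every set of 4 values below.

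The study measured RNA in single nuclei of the hypothalamus of wild-type C57BL/6J mice, called conventional in the series text and SPF in the sample labels. In the 2 ImP libraries the mice had received 350 µg of imidazole propionate, a bacterial product of histidine, per day. In the 2 vehicle libraries they had received sterile water with 1% DMSO. Both were given into the peritoneal cavity from an osmotic minipump over 2 weeks, and the implanted pump, surgery and analgesia were common to both groups. The labels give neither sex nor age. They do not say whether a library came from 1 mouse or whether the libraries came from separate mice. So p-values here refer to libraries and not to mice. The tests estimate a gene's spread between libraries partly from other genes, so its own libraries can vary more than its p-value conveys.

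Potassium channels let potassium ions leave or enter a cell and so set its resting potential, the shape of its action potentials and how often it fires. Voltage-gated families (Kv, KCNQ, EAG) open on depolarisation, inward rectifiers (Kir) and 2-pore leak channels (K2P) act near rest, and calcium-activated channels (SK, BK) open when calcium enters. Auxiliary subunits change gating or traffic without forming a pore, and astrocytes are known for taking up the potassium that neurons release, mainly through a Kir channel.

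Nuclei were assigned to classes by marker genes, and UMIs were summed per class and library. Levels are given as CPM, the UMIs of a gene per 1000000 UMIs of that class. The 4 libraries kept between 10917 and 15725 nuclei, with median UMIs per nucleus from 2820 to 3757, and both ImP libraries were the shallower ones. Between 11.8% and 23.1% of nuclei could not be assigned. Neurons numbered 35606, astrocytes 3233, oligodendrocytes 4360, oligodendrocyte precursors 998 and microglia 417. The 8 neuron markers summed to between 18640 and 19916 CPM in neurons and to between 1845 and 2907 CPM in the glial classes, so neuron markers were also counted in the glial sums. ImP 4 also held pituitary nuclei (20, with 0 in the other libraries). In that library 8 pituitary markers summed to 1733 CPM in neurons and to between 2911 and 4961 CPM in the 4 glial classes, against at most 31.1 CPM in neurons and 76.5 CPM in glia of the other libraries. Pairs of libraries shared between 39 and 76 barcodes.

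Upstream sequence is shown for 4 genes on which the results below turn. Kcnj10 and Kcnj9 are neighbours on mouse chromosome 1, with starts 11888 bases apart. In astrocytes, oligodendrocytes and precursors the mean level of Kcnj10 was above that in neurons and the mean level of Kcnj9 below. For Kcnj9 only the difference in precursors passed the test described below. Kcnk13 had the largest fold over neurons in oligodendrocytes among the genes named there, and Kcng3 had the largest fold among genes called higher in the neuron types. Each run is the 250 bases before a RefSeq start in the build GRCm38.p6, 5′ to 3′ on the gene's strand, with every CG pair in capitals.
Kcnj10, chr1:172340960-172341209, plus strand: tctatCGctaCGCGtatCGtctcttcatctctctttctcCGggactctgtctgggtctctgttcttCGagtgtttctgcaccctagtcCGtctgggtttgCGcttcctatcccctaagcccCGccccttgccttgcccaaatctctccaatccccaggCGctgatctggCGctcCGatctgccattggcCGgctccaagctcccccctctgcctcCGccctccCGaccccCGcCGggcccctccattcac
Kcnj9, chr1:172329323-172329572, minus strand: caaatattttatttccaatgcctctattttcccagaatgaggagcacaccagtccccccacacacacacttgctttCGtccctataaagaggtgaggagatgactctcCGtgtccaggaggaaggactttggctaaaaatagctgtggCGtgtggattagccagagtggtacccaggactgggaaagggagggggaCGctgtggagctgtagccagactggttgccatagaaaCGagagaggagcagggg
Kcnk13, chr12:99964249-99964498, plus strand: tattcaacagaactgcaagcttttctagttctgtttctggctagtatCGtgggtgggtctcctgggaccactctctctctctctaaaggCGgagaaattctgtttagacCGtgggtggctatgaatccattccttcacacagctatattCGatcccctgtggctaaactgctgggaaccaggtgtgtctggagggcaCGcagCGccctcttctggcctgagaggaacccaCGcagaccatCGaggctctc
Kcng3, chr17:83631896-83632145, minus strand: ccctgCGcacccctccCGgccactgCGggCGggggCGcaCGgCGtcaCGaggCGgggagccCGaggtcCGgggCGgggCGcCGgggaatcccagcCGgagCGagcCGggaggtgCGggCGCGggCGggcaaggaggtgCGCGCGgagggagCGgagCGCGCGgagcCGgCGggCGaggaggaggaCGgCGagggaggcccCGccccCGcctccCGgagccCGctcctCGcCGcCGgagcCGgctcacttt

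The Kcng3 window held 41 CG pairs, a number that 1.09% of the 32851 RefSeq windows of the same length reached. Kcnj10 held 17 (reached by 23.5%), Kcnk13 8 (43.0%) and Kcnj9 5 (55.6%), against a median of 6 over all windows. For 57 of the 82 potassium channel genes the table had at least 1 window, and the median over their 80 windows was 8. The letters TTGGC, searched on both strands, occurred in the Kcnj10 and Kcnj9 windows and in 41.5% of all windows. The letters CAGCACC, searched on both strands, occurred in none of the 4 and in 5.73% of all windows. A match of letters is a description and does not show that a protein binds there.

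The first comparison was between each glial class and neurons. Most potassium channel genes had a lower share of RNA in glia, and 20 genes, among them inward rectifiers, leak channels, voltage-gated and SK pore genes and auxiliary subunits, had a higher one in at least 1 class. A gene was called where edgeR's quasi-likelihood test with the library as a block gave an adjusted p under 0.05 and the fold was at least 2. In astrocytes 7 of 79 tested genes were higher and 44 lower, against 14.9% and 19.9% of all genes tested. In oligodendrocytes 7 of 79 were higher and 46 lower, against 15.1% and 23.8%. Among oligodendrocyte precursors 9 of 78 were higher and 26 lower, against 9.47% and 13.1%. In microglia 5 of 77 were higher and 35 lower, against 10.3% and 20.9%.

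The median log2 fold of the potassium channel genes was -1.16 in astrocytes (all genes -0.10), -1.33 in oligodendrocytes (-0.11), -0.65 in precursors (-0.15) and -2.09 in microglia (-0.48). With genes at 0 UMIs in the class put at their bound, the medians were -1.14 in astrocytes, -0.55 in precursors and -1.70 in microglia. All 4 comparisons used the same neurons. Fitted folds are scaled by TMM factors, which put them 0.57 on the log2 scale below the ratio of CPM in microglia and within 0.06 of it in the other 3 classes. Of 77 genes tested in all 4, only Kcnj10 was higher in every class. Those lower in every class were 11, namely Kcna4, Kcnb2, Kcnc1, Kcnc2, Kcnh1, Kcnh7, Kcnip2, Kcnip4, Kcnj12, Kcnj6 and Kcnmb2. A further 14 were higher in one glial class and lower in another, and 10 were called in none. For these counts, and for the 20 genes higher in at least 1 class, no share over all genes is given. Whether such counts are particular to potassium channel genes was not tested.

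**Figure D1:**
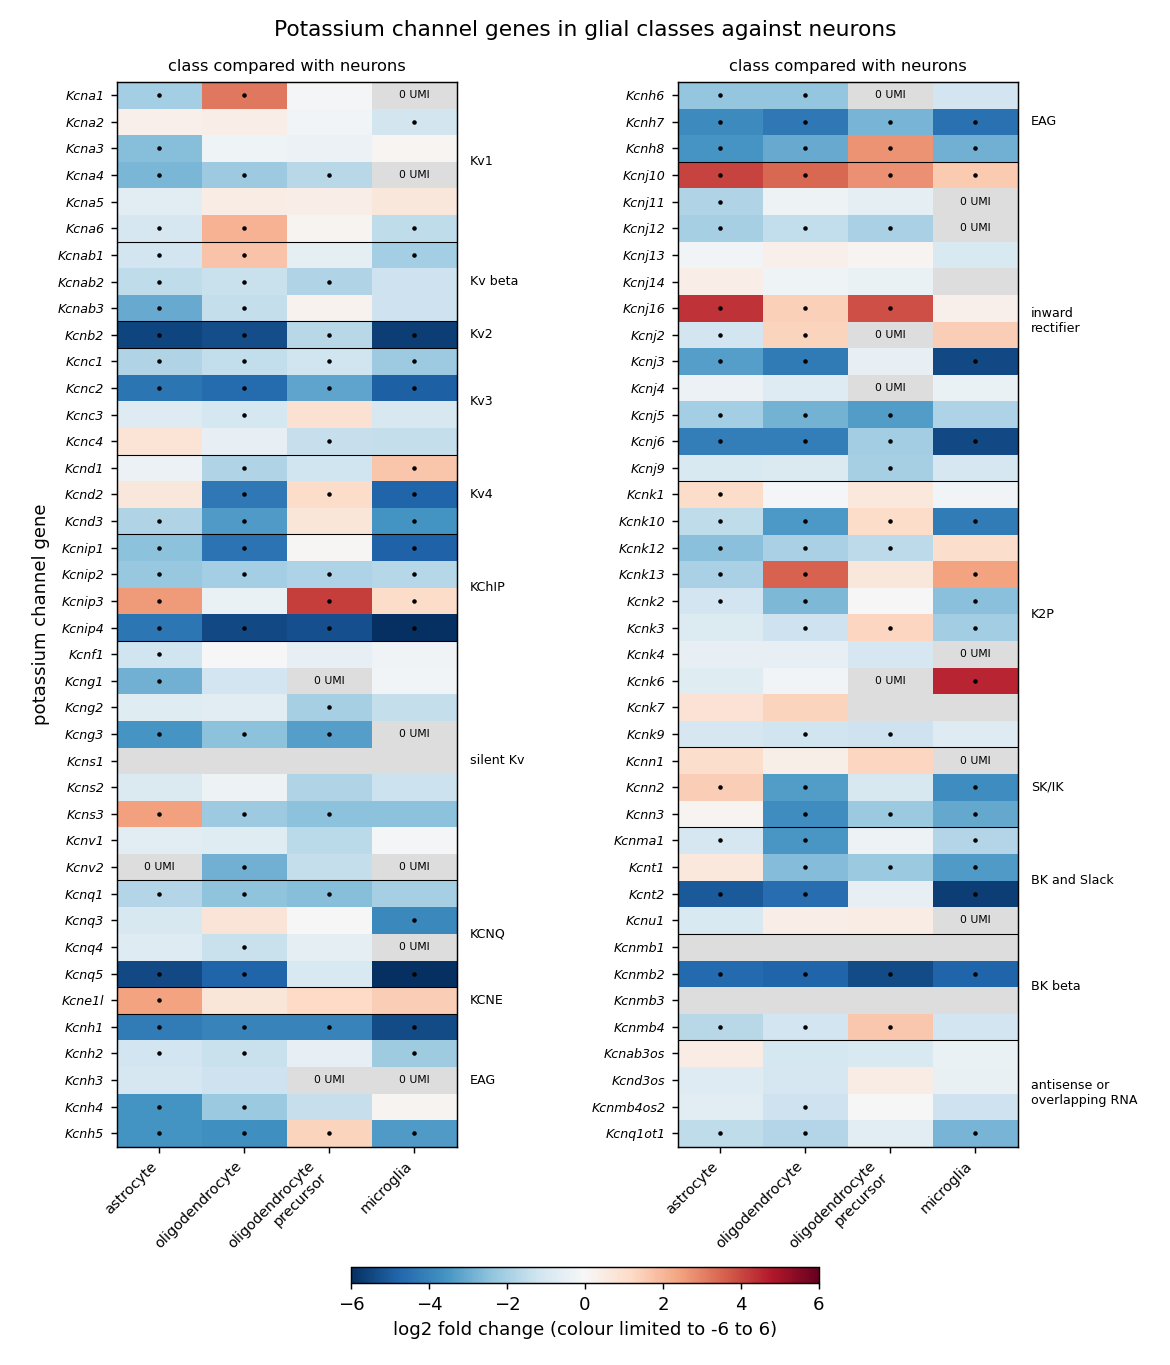
Log2 fold change of the potassium channel genes reported by name (vertical axis, grouped by family) in 4 glial classes (horizontal axis) against neurons, with dots on genes that passed an adjusted p of 0.05 and a fold of 2; grey squares were not tested or, where marked, had 0 UMIs in the class. Blue predominates in all columns, and Kcnj10 is red in all 4, at a log2 fold of 4.06 in astrocytes.

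Inward rectifiers were split by gene. Kcnj10 (Kir4.1, the main potassium uptake channel of glia) measured 146, 173, 158 and 98.5 CPM in astrocytes against 6.13, 7.54, 10.1 and 9.36 CPM in neurons. Every astrocyte value exceeded every neuron value, and ImP 4 was the lowest of the astrocyte values. The log2 fold was 4.06 (SE 0.12, adjusted p = 4.35e-38). In oligodendrocytes it measured 80.8, 93.4, 92.9 and 79.4 CPM (log2 fold 3.46, SE 0.12), and in precursors 58.0, 53.1, 55.2 and 52.4 CPM (log2 fold 2.76, SE 0.20). These 2 classes were also clear of neurons in each library.

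In microglia Kcnj10 rested on 20 UMIs in 417 nuclei, at 19.0, 58.0, 35.0 and 32.3 CPM (log2 fold 1.57, SE 0.45, adjusted p = 0.00181). Without vehicle 2 the adjusted p was 0.0972. The 10 astrocyte markers summed to between 609 and 962 CPM in microglia, against 8124 to 9184 CPM in astrocytes, and their part in this value was not tested.

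Kcnj16 (Kir5.1, a partner that forms channels with Kir4.1) measured 56.0, 67.5, 49.1 and 74.1 CPM in astrocytes against 2.47, 3.16, 2.90 and 3.26 CPM in neurons (log2 fold 4.32, SE 0.16, adjusted p = 7.06e-33). In precursors it measured 48.0, 31.9, 42.2 and 43.7 CPM (log2 fold 3.84, SE 0.25). Neither class overlapped neurons in any library. Kcnj16 was also called higher in oligodendrocytes, at a level under 10 CPM, and was not called in microglia. The neighbour of Kcnj10, Kcnj9 (GIRK3, a subunit of G-protein-gated channels), averaged 15.5 ± 1.855 CPM (SD, n = 4) in neurons, 8.8 CPM in astrocytes, 8.0 in oligodendrocytes and 3.9 in precursors, and of the 4 comparisons only that of precursors passed the test, as lower. Its partners Kcnj3 (GIRK1) and Kcnj6 (GIRK2) averaged 373 and 158 CPM in neurons. Kcnj6 was lower in all 4 glial classes and Kcnj3 in all but precursors, where it averaged 257 CPM.

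Kcnj2 (Kir2.1) was higher in oligodendrocytes at a low level (8.7 CPM against 3.6 CPM in neurons) and lower in astrocytes and precursors. It was chosen after its values were seen, being under 10 CPM. Kcnj11 (Kir6.2, the pore of the ATP-sensitive channel) averaged 1.9 CPM in neurons and 0.6 CPM in astrocytes, where it was called lower. Kcnj13 (Kir7.1) lay between 17.2 and 24.9 CPM in all 5 classes and was called in none. It overlaps Gigyf2 in RefSeq, and the sources used here do not say whether counting used strand, so reads of the pair may not be separated.

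Among leak channels, Kcnk13 (THIK-1, known for the resting conductance of microglia) stood out in 2 glial classes. In oligodendrocytes it measured 336, 299, 238 and 231 CPM, against 22.7, 25.3, 24.5 and 26.7 CPM in neurons (log2 fold 3.53, SE 0.10, adjusted p = 6.69e-24). No oligodendrocyte value came near the neuronal ones, and both vehicle values lay above both ImP values. At least 1 Kcnk13 UMI was seen in 30.0% of 4360 oligodendrocytes, 8.09% of 35606 neurons and 1.02% of 3233 astrocytes. Median depths per library were 1354 to 1483.5 UMIs in oligodendrocytes, 3535 to 4636 in neurons and 1463 to 1663 in astrocytes.

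In microglia Kcnk13 measured 333, 109, 203 and 174 CPM (log2 fold 2.42, SE 0.20, adjusted p = 3.14e-32), with vehicle 1 the highest and vehicle 2 the lowest. The 10 oligodendrocyte markers summed to between 676 and 1279 CPM in microglia, against 13228 to 15540 CPM in oligodendrocytes. Their part was not tested. In astrocytes Kcnk13 was lower than in neurons, at 6.6 CPM.

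Kcnk6 (TWIK-2) was the other leak channel of microglia, at 66.6, 14.5, 56.0 and 38.8 CPM against 1.37, 1.54, 1.21 and 0.78 CPM in neurons (log2 fold 4.58, SE 0.54, adjusted p = 2.65e-16). This rested on 23 UMIs in 20 of 417 nuclei, or 4.80% (median depths 1191.5 to 1279 UMIs), against 0.531% of neurons. All 4 microglial values exceeded the neuronal ones, and vehicle 2 was the lowest. Kcnk1 (TWIK-1) was higher in astrocytes, at 56.0, 51.3, 60.9 and 60.0 CPM against 25.2 ± 2.21 CPM (SD, n = 4) in neurons (log2 fold 1.12, SE 0.11). Kcnk3 (TASK-1) and Kcnk10 (TREK-2) were higher in precursors, at 26.0 and 145 CPM against 10.7 and 68.1 CPM. The other acid-sensitive channel, Kcnk9 (TASK-3), was lower in oligodendrocytes and precursors, and Kcnk2 (TREK-1) was lower in astrocytes, oligodendrocytes and microglia.

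Of the Kv1 family and its beta subunits, Kcna1, Kcna6 and Kcnab1 were higher in oligodendrocytes than in neurons. Kcna1 (Kv1.1) measured 245, 233, 209 and 249 CPM in oligodendrocytes against 24.6, 27.9, 26.0 and 28.5 CPM in neurons (log2 fold 3.19, SE 0.08, adjusted p = 6.88e-25). The classes were far apart in every library. Precursors averaged 24.7 CPM and were not called, astrocytes were lower at 6.7 CPM, and microglia held 0 UMIs of 540692, which places Kcna1 at least 4.82-fold lower there than in neurons with a floor of 3 counts over the class. With nuclei that carried markers of another class kept, the microglial call ended (adjusted p = 0.6785).

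Kcna6 (Kv1.6) measured 121, 131, 114 and 111 CPM in oligodendrocytes against 29.3 ± 2.05 CPM (SD, n = 4) in neurons (log2 fold 2.08, SE 0.09). Kcnab1 (the beta subunit Kvβ1) measured 645, 420, 443 and 365 CPM against 145 ± 5.41 CPM (SD, n = 4) (log2 fold 1.73, SE 0.09), with vehicle 1 well above the other libraries. Kcna4 (Kv1.4) was lower in all 4 glial classes, with 0 UMIs in microglia (at least 4.18-fold lower). Kcna2 (Kv1.2) averaged 24.0 CPM in neurons and 30.7 CPM in both astrocytes and oligodendrocytes. It passed the test in microglia alone, as lower, at 9.51, 21.7, 7.003 and 25.8 CPM (fitted log2 fold -1.09, SE 0.46, adjusted p = 0.0474). The microglial values rested on 9 UMIs and overlapped those of neurons, and the call ended under 7 of 9 alternatives that vary the fit, the gate or the libraries, among them DESeq2 (0.192).

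**Figure D2:**
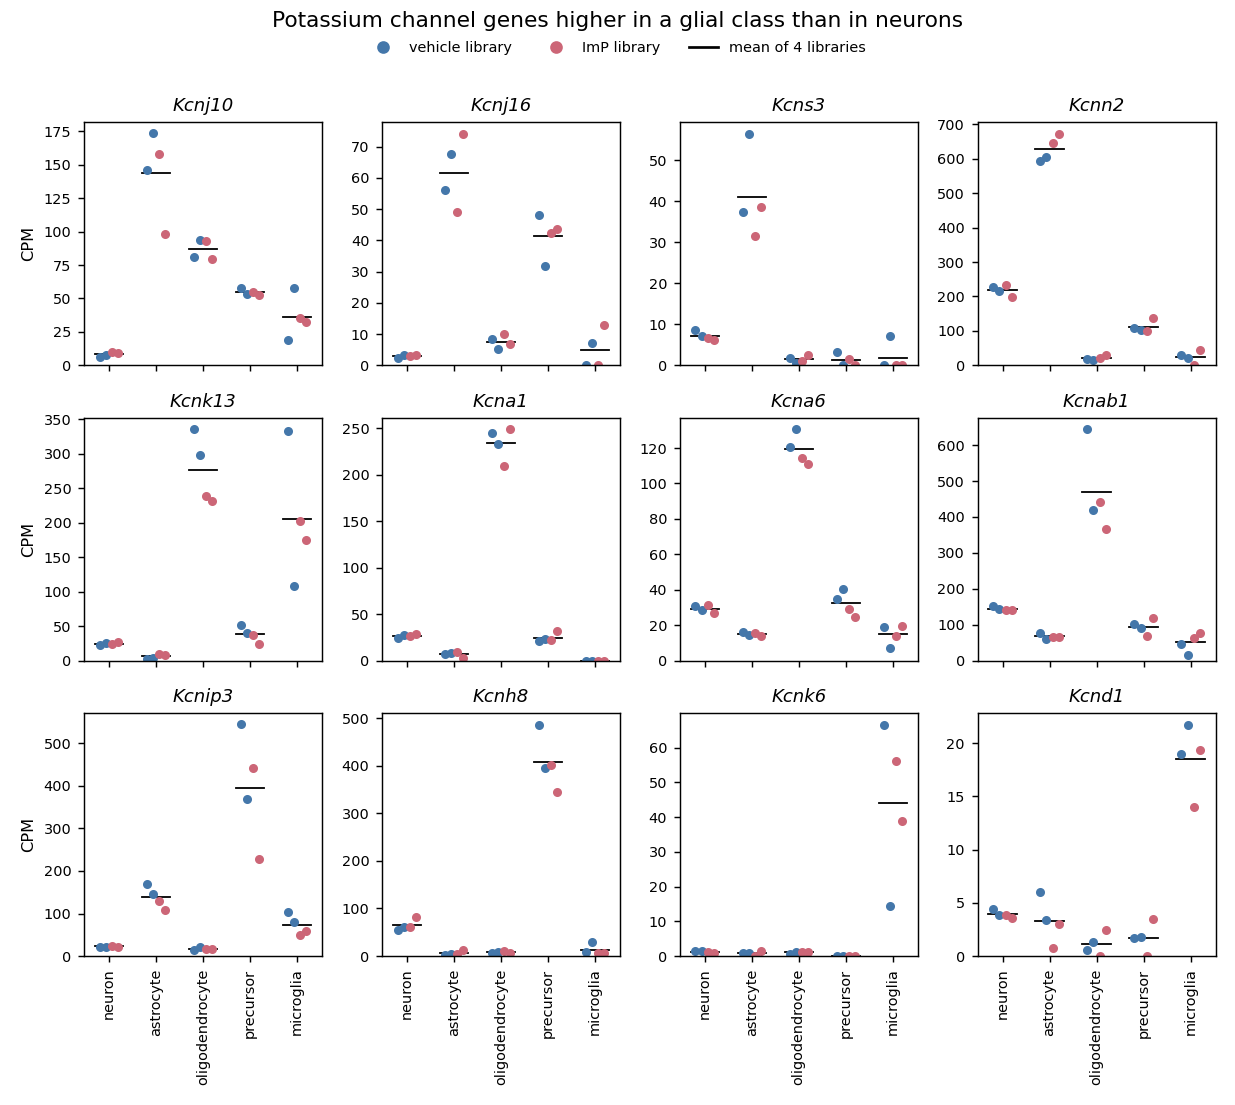
CPM (vertical axis, its own scale in each panel) of 12 potassium channel genes in neurons and 4 glial classes (horizontal axis), 1 point per library, with a bar at the mean of 4 libraries. Kcnj10 is high in astrocytes, oligodendrocytes and precursors, and Kcnj16 in astrocytes and precursors. Kcna1 and Kcna6 are high in oligodendrocytes, Kcnh8 in precursors, and Kcnk6 in microglia, where its libraries range from 14.5 to 66.6 CPM.

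The Kv4 channels carry the A-type current and work with the calcium-binding KChIP subunits. Kcnd2 (Kv4.2) averaged 2091 CPM in neurons and was higher in precursors at 4472 CPM (log2 fold 1.12). In astrocytes it averaged 3464 CPM, which did not pass the fold of 2, and it was lower in oligodendrocytes and microglia, at 103 and 106 CPM. Kcnip3 (KChIP3, also known as the repressor DREAM) measured 545, 368, 441 and 229 CPM in precursors against 22.2, 22.0, 24.1 and 21.6 CPM in neurons (log2 fold 4.14, SE 0.09). ImP 4 was the lowest of the precursor values and still far above every neuron value.

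In astrocytes Kcnip3 measured 169, 146, 128 and 108 CPM (log2 fold 2.55, SE 0.10), with both vehicle values above both ImP values. In microglia it measured 105, 79.7, 49.0 and 58.1 CPM (log2 fold 1.08, SE 0.29). Without vehicle 1 the microglial log2 fold was 0.90, under the 2-fold minimum. Kcnip4 (KChIP4) was instead high in neurons, at 5253, 4849, 5067 and 4396 CPM in neurons against 322, 198, 288 and 207 CPM in astrocytes (log2 fold -4.34, SE 0.11). It was also lower in oligodendrocytes (log2 fold -5.43), precursors (-5.27) and microglia (-6.07). Kcnip1 (KChIP1) averaged 249 CPM in neurons and 260.3 CPM in precursors, and was lower in astrocytes, oligodendrocytes and microglia.

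Kcnd1 (Kv4.1) measured 19.0, 21.7, 14.0 and 19.4 CPM in microglia against 4.37, 3.87, 3.84 and 3.57 CPM in neurons (log2 fold 1.69, SE 0.64, adjusted p = 0.0234). All microglial values were higher, but the call ended without any 1 library (adjusted p from 0.0556 to 0.116) and with nuclei that carried markers of another class kept (0.172).

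Delayed rectifiers were lower in most glial classes. Kcnb2 (Kv2.2) averaged 873 ± 17.0 CPM (SD, n = 4) in neurons and measured 14.9, 13.7, 23.5 and 26.7 CPM in astrocytes (log2 fold -5.52, SE 0.13, adjusted p = 7.75e-44). It was as far below neurons in oligodendrocytes (log2 fold -5.31) and microglia (-5.64), while precursors measured 268 CPM. The fast channel of rapidly firing neurons Kcnc2 (Kv3.2) averaged 448 ± 18.3 CPM (SD, n = 4) in neurons and between 17.8 and 49.0 CPM in the glial classes, with log2 folds of -4.39 in astrocytes, -4.60 in oligodendrocytes and -3.16 in precursors. Kcnc1 (Kv3.1) averaged 84.2 CPM in neurons and between 25.5 and 35.7 CPM in glia.

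Silent Kv subunits form no channel alone and modify Kv2 channels. Kcns3 (Kv9.3) was the one called higher, in astrocytes, at 37.3, 56.4, 31.5 and 38.5 CPM against 8.65, 7.03, 6.69 and 6.10 CPM in neurons (log2 fold 2.45, SE 0.16, adjusted p = 1.23e-20). It was lower in oligodendrocytes and precursors, at 1.5 and 1.2 CPM. Kcns1 was among the 3 genes tested in no glial class, with Kcnmb1 and Kcnmb3.

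Of the 8 EAG family genes, 7 were lower in astrocytes and 7 in oligodendrocytes, and 2 were higher in precursors. Kcnh8 (Elk1) measured 487, 397, 402 and 344 CPM in precursors against 54.4, 61.8, 62.0 and 81.2 CPM in neurons (log2 fold 2.69, SE 0.08). Kcnh5 (Eag2) measured 227, 299, 261 and 262 CPM against 106 ± 3.68 CPM (SD, n = 4) (log2 fold 1.33, SE 0.09). Both stood clear of neurons in all 4 libraries. Other genes of the same family were lower in precursors, with Kcnh1 (Eag1) at a log2 fold of -3.99 and Kcnh7 (Erg3) at -2.80. Kcnh6 (Erg2) had 0 UMIs in precursors against 10.9 CPM in neurons, at least 8.58-fold lower with a floor of 3 counts over the class.

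KCNQ genes encode the M-current, which holds neurons back from repetitive firing. Kcnq5 averaged 633 ± 12.9 CPM (SD, n = 4) in neurons against 15.5 CPM in astrocytes (log2 fold -5.41, SE 0.13), 22.1 CPM in oligodendrocytes (-4.79) and 13.1 CPM in microglia (-6.18). Precursors averaged 327 CPM, which did not reach a fold of 2. Kcnq3 averaged 780.1 CPM in oligodendrocytes against 469 CPM in neurons, which did not reach a fold of 2, and was lower only in microglia, at 44.7 CPM. Kcnq1ot1, a long RNA antisense to Kcnq1, averaged 526 CPM in neurons and was lower in astrocytes, oligodendrocytes and microglia. The 2 genes overlap, so their reads may not be separated.

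Calcium-activated channels differed by subunit. Kcnn2 (SK2) measured 595, 605, 647 and 673 CPM in astrocytes against 226, 216, 232 and 198 CPM in neurons (log2 fold 1.47, SE 0.08, adjusted p = 2.23e-25). The 2 classes did not overlap, and oligodendrocytes and microglia were lower than neurons at 20.7 and 23.9 CPM. Kcnn3 (SK3) averaged 63.8 CPM in neurons and 73.5 CPM in astrocytes and was lower in the other 3 classes. The BK pore gene Kcnma1 averaged 633 CPM in neurons and 507 CPM in precursors, and was lower in astrocytes, oligodendrocytes and microglia. Its neuronal auxiliary subunit Kcnmb4 was higher in precursors, at 39.7, 49.6, 53.5 and 55.9 CPM against 16.3 ± 1.085 CPM (SD, n = 4) (log2 fold 1.63, SE 0.18), and lower in astrocytes and oligodendrocytes.

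The inactivating BK subunit Kcnmb2 was lower in all 4 classes, with log2 folds of -4.67 in astrocytes, -4.80 in oligodendrocytes and -5.35 in precursors. The sodium-activated channel Kcnt2 (Slick) averaged 186 ± 7.45 CPM (SD, n = 4) in neurons and was lower in astrocytes (log2 fold -5.03), oligodendrocytes (-4.57) and microglia (-5.63). Its relative Kcnt1 (Slack) averaged 52.5 CPM in neurons and 84.9 CPM in astrocytes, a difference under 2-fold, and was lower in the other 3 classes. Kcne1l, an auxiliary subunit under 10 CPM and so chosen after its values were seen, was higher in astrocytes at 7.5 CPM against 1.3 CPM.

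Other genes that move or regulate potassium (34 sodium pump, cotransporter, ATP-sensitive channel and accessory genes) were partly higher and partly lower in glia. In astrocytes 6 of 31 tested were higher and 13 lower. Atp1b2 (a sodium pump beta subunit) had a log2 fold of 2.81 (SE 0.09). In oligodendrocytes 8 of 31 were higher and 12 lower, with Slc12a2 (the cotransporter NKCC1) at a log2 fold of 3.36 (SE 0.08). In precursors 5 of 32 were higher and 7 lower, and in microglia 5 of 31 and 13. The shares over all genes are those given above for each class.

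The second comparison was between neurons gated by transmitter, 7622 GABAergic against 2845 glutamatergic nuclei. Only 1 of 70 tested genes was higher by 2-fold and 1 lower, against 0.787% and 1.65% of all genes. Without vehicle 1 or vehicle 2, with DESeq2 or under a stricter marker gate the count was 1 in all. Without the fold minimum 8 were higher and 24 lower, against 5.09% and 8.10%, and the median log2 fold was -0.15 (all genes 0.01). Kcng1 (a silent Kv subunit) averaged 2.0 CPM in GABAergic and 0.8 CPM in glutamatergic neurons (log2 fold 1.29, adjusted p = 0.0372). By DESeq2 this call ended, at an adjusted p of 0.475. It also ended without vehicle 1 (0.1496), vehicle 2 (0.209) or ImP 3 (0.101). Kcnj2 averaged 2.2 and 6.2 CPM (log2 fold -1.48). Both were chosen after their values were seen. Their levels are low. Under the stricter gate neither gene was tested, so the 1 call there, a lower one, was of another gene.

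Among genes at a higher level the differences stayed under 2-fold. Kcnip4 averaged 3725 CPM in GABAergic and 6724 CPM in glutamatergic neurons (log2 fold -0.90), Kcnq5 522 and 838 CPM (-0.74) and Kcnq3 386 and 579 CPM (-0.64). Kcnj6 and Kcnj3, which pair in G-protein-gated channels, had log2 folds of -0.62 and -0.52. Kcnt2 had a higher level in GABAergic neurons, at 252 and 129.7 CPM (0.90), as did Kcnmb2 at 94.9 and 60.1 CPM (0.60). These values are given without the fold minimum and were chosen after they were seen.

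The third comparison was between neurons that carry 1 hypothalamic transmitter or peptide and all other neurons. Of the potassium channel genes tested in the 10 types that had at least 20 nuclei in each library, 41 were called in at least 1 type, 19 higher and 31 lower, of which 9 in both directions, and 37 in none. Of all 18428 genes tested in these types, 21.6% were called in at least 1, 11.8% higher, 13.6% lower and 3.81% in both directions. The types are compared with nearly the same other neurons, and each rests on few nuclei. Kcnh8 and Kcnmb2 were each called in 6 of the 10 types, higher in 2 and lower in 4. No share over all genes is given for that number of types. Of the calls detailed below, those of Kcnh8 in Trh and Tac2 neurons and Kcnmb2 in Nts neurons ended under some alternatives.

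**Figure D3:**
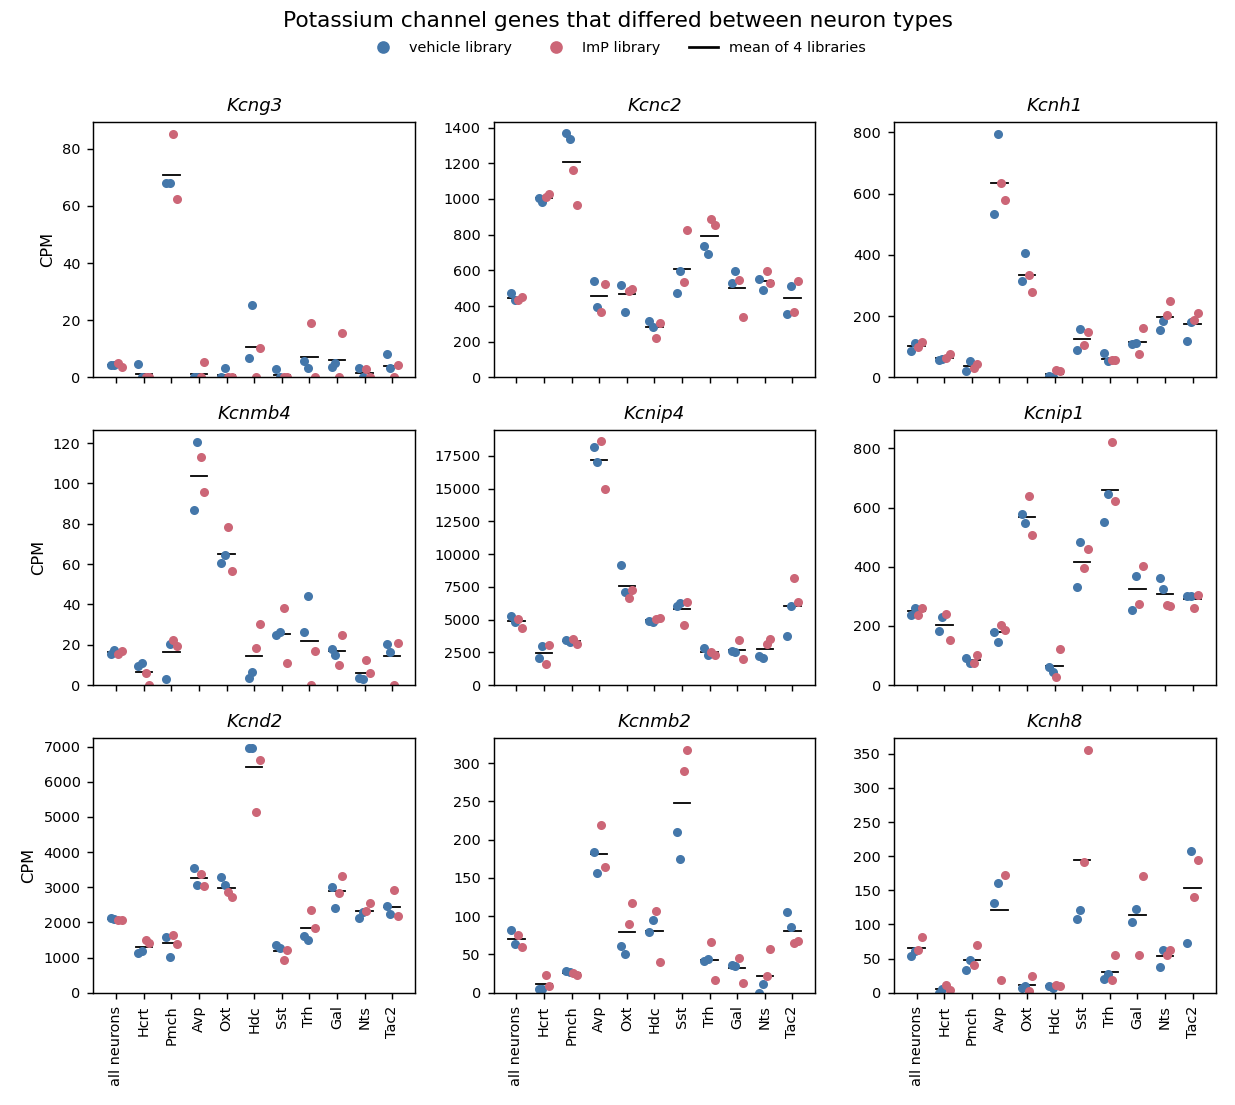
CPM (vertical axis, its own scale in each panel) of 9 potassium channel genes in all neurons and 10 neuron types (horizontal axis), 1 point per library, with a bar at the mean of 4 libraries. Kcng3 stands out in Pmch neurons at 62.5 to 84.9 CPM, Kcnh1 and Kcnmb4 in Avp and Oxt neurons, Kcnd2 in Hdc neurons and Kcnip1 in Oxt and Trh neurons.

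Pmch neurons (149 nuclei; Pmch encodes melanin-concentrating hormone, a feeding and sleep peptide of the lateral hypothalamus) had 4 of 77 genes higher and 9 lower, against 2.25% and 3.0% of all genes, and 8 in all without ImP 3. The silent subunit Kcng3 (Kv6.3) measured 68.0, 68.1, 84.9 and 62.5 CPM in them and 3.90, 4.17, 4.35 and 3.26 CPM in other neurons (log2 fold 4.22, SE 0.30, adjusted p = 5.87e-42). All 4 libraries were alike in this. It was found in 43 of the 149 nuclei, or 28.9%, in 1.52% of 35457 other neurons and in 0.062% of astrocytes. Median depths per library were 5679 to 7352.5 UMIs in Pmch neurons and 3527 to 4627 in other neurons.

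Kcnc2 in Pmch neurons measured 1372, 1335, 1163 and 968 CPM against 443 ± 16.7 CPM (SD, n = 4) (log2 fold 1.46, SE 0.11). Kcna4 measured 90.7, 47.7, 66.5 and 31.2 CPM against 22.9 ± 1.21 CPM (SD, n = 4) (log2 fold 1.46, SE 0.24). Every value of both genes lay above those of other neurons. Kcnj2 was called at a log2 fold of 2.06 with 0 UMIs in vehicle 2, and the call ended without ImP 3 (adjusted p = 0.135) or ImP 4 (0.0792). Lower genes included Kcnh1 (log2 fold -1.58), Kcnj3 (-1.53), Kcnip1 (-1.49) and Kcnip3 (-2.17). Kcnip3 was not called by DESeq2 (0.0656). Kcna2 (-1.42) and Kcnh2 (Erg1, -2.47) were also lower. Kcna2 was not called by DESeq2 (0.169) or without ImP 3 (0.160), and Kcnh2 by 6 of the alternatives, among them DESeq2 (0.2095).

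Hcrt neurons (126 nuclei; Hcrt encodes the arousal peptides orexin) had 3 of 77 genes higher and 12 lower, against 2.39% and 4.60% of all genes, and 9 in all without ImP 3. Kcnc2 measured 1006, 984, 1009 and 1030.4 CPM against 445 ± 18.1 CPM (SD, n = 4) in other neurons (log2 fold 1.10, SE 0.10, adjusted p = 2.95e-24). Kcnk13 measured 58.1, 71.5, 47.2 and 61.4 CPM against 24.6 ± 1.65 CPM (SD, n = 4) (log2 fold 1.20, SE 0.27). Both were higher in all 4 libraries. Kcnh4 (EAG family) had a log2 fold of 1.75 (adjusted p = 0.0276). This call ended under a stricter marker gate (0.121) and without any 1 library (0.0584 to 0.194).

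Lower in Hcrt neurons were Kcnh8 (0, 5.50, 11.8 and 4.73 CPM against 65.1 ± 11.5, SD, n = 4; log2 fold -3.73), Kcnt2 (-3.01), Kcnmb2 (-2.83), Kcnn2 (-2.22), Kcnip3 (-2.19) and Kcnh5 (-1.91). Kcnip3 was not called by DESeq2 (adjusted p = 0.102) or without ImP 3 (0.0542). The median log2 fold over the 77 genes was -0.80, against -0.25 over all genes. It was -0.725 with the genes at 0 UMIs put at their bound where they had one.

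Avp and Oxt neurons make vasopressin and oxytocin, the hormones released from the posterior pituitary, and many are large neurosecretory cells. The 409 Avp nuclei had 7 of 78 genes higher and 9 lower, against 2.72% and 4.44% of all genes. The 209 Oxt nuclei had 4 of 77 higher and 12 lower, against 2.49% and 3.17%. In the Avp nuclei Kcnh1 measured 534, 793, 635 and 580.1 CPM against 96.5 ± 11.4 CPM (SD, n = 4) in other neurons (log2 fold 2.72, SE 0.08, adjusted p = 6.26e-244). In the Oxt nuclei it measured 315, 407, 334 and 279 CPM (log2 fold 1.67, SE 0.10). Both types were above other neurons in every library.

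Kcnmb4, the BK subunit that slows gating, measured 86.6, 120.5, 113 and 95.5 CPM in Avp nuclei against 15.2 ± 0.925 CPM (SD, n = 4) in other neurons (log2 fold 2.77, SE 0.15, adjusted p = 9.12e-70). In Oxt nuclei it measured 60.7, 64.4, 78.6 and 56.6 CPM (log2 fold 2.00, SE 0.23). Its UMIs were found in 142 of 409 Avp nuclei (34.7%), 57 of 209 Oxt nuclei (27.3%), 5.75% of the neurons that are not Avp and 0.835% of astrocytes. Median depths per library were 3644 to 5528 UMIs in Avp nuclei, 4073 to 6585.5 in Oxt nuclei and 3532 to 4629 in neurons that are not Avp. The overlapping antisense RNA Kcnmb4os2 was also called in both (log2 folds 1.75 in Avp and 2.02 in Oxt nuclei), and reads of this pair may not be separated. In Oxt nuclei that call rested on vehicle 2 (adjusted p = 0.675 without it) and was not made by DESeq2 (0.110).

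Kcnip4 measured 18215, 17051, 18634 and 14988 CPM in Avp nuclei against 4733 ± 369 CPM (SD, n = 4) (log2 fold 1.87, SE 0.08). Kcnj12 (Kir2.2, log2 fold 1.75), Kcnmb2 (1.41) and Kcnd3 (Kv4.3, 1.21) were higher as well. In Oxt nuclei Kcnip1 measured 577, 549, 640 and 506 CPM against 247 ± 14.4 CPM (SD, n = 4) (log2 fold 1.16, SE 0.09). Kcnj3 was lower in both types, at 142 ± 19.7 CPM (SD, n = 4) in Avp and 108 ± 29.6 CPM (SD, n = 4) in Oxt nuclei, against 376 and 375 CPM in their other neurons.

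Kcna1 (log2 fold -1.66), Kcnn2 (-1.48), Kcnk13 (-1.46), Kcna2 (-1.25) and Kcnh5 (-1.21) were lower in Avp nuclei. Kcnk13 fell short of 2-fold with nuclei that carried markers of another class kept (-0.96), and Kcnh5 without vehicle 2 (-0.97). In Oxt nuclei Kcnh8 (-2.70), Kcnk9 (-2.37), Kcnip3 (-1.60), Kcnq5 (-1.36) and Kcng2 (a silent subunit, -2.04) were lower. Kcnip3 was not called by DESeq2 (0.0684), and the call of Kcng2 ended under 5 alternatives, with DESeq2 at an adjusted p of 0.246.

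Avp and Oxt nuclei were also compared directly, a test added after their values were seen. Of 30 genes tested 2 were higher in Avp and 1 lower, against 1.59% and 2.13% of all genes. Kcnip4 was higher in Avp nuclei, with 9149, 7082, 6660.2 and 7262 CPM in Oxt nuclei (log2 fold 1.22, SE 0.08). Kcnmb2 was higher by the same log2 fold of 1.22 (SE 0.18). Kcnip1 was lower, at 179.6, 145, 204 and 186 CPM in Avp nuclei (log2 fold -1.65, SE 0.12, adjusted p = 7.20e-11). Kcnh1 differed by a log2 fold of 0.95 (SE 0.11), under the 2-fold minimum.

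Hdc neurons (173 nuclei; Hdc makes histamine, and these cells lie in the tuberomammillary nucleus) had the most genes called of the 10 types, 5 of 77 higher and 20 lower, against 4.09% and 7.30% of all genes. Kcnd2 measured 6955, 6949.9, 5142 and 6606 CPM against 2058 ± 21.2 CPM (SD, n = 4) (log2 fold 1.59, SE 0.09, adjusted p = 5.11e-65). Kcnb2 measured 1773, 2413, 1995 and 2278 CPM against 863 ± 16.1 CPM (SD, n = 4) (log2 fold 1.25, SE 0.09). Both were higher in all 4 libraries. Kcna4 (log2 fold 1.60), Kcnh5 (1.37) and Kcnj12 (1.32) were higher too, and the call of Kcnj12 ended without vehicle 2, ImP 3 or ImP 4 (adjusted p from 0.0505 to 0.0990).

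The genes lower in Hdc nuclei came from several families. Kcnh1 measured 3.32, 0, 25.9 and 20.3 CPM against 104 ± 12.7 CPM (SD, n = 4) (log2 fold -3.18, SE 0.27). Kcnq5 measured 103, 76.5, 96.0 and 122 CPM against 637 ± 12.8 CPM (SD, n = 4) (log2 fold -2.72, SE 0.13). The leak channels Kcnk9 (-2.87), Kcnk2 (-2.84) and Kcnk13 (-2.60) and the EAG gene Kcnh8 (-2.85) were also lower. The median log2 fold was -0.84 over the 77 genes and -0.19 over all genes. It was -0.67 with the genes at 0 UMIs put at their bound where they had one.

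The remaining 5 types had few calls. Sst neurons (175 nuclei, somatostatin) had 3 of 77 genes called, all higher, against 0.848% of all genes. Kcnmb2 measured 210, 175, 290.1 and 318 CPM against 69.1 ± 10.7 CPM (SD, n = 4) (log2 fold 1.69, SE 0.14). Kcnh8 measured 108, 121, 191 and 356 CPM against 64.2 ± 11.1 CPM (SD, n = 4) (log2 fold 1.39, SE 0.15), with ImP 4 far above the rest. Kcnj5 (GIRK4) was called at a log2 fold of 1.84, but not without any 1 library (adjusted p from 0.0764 to 0.659), of which ImP 3 was the highest.

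Trh neurons (166 nuclei, thyrotropin-releasing hormone) had 1 of 77 genes higher and 4 lower, against 2.03% of all genes in either direction, and 3 in all without ImP 4. Kcnip1 measured 551, 645, 822 and 624 CPM against 247 ± 13.6 CPM (SD, n = 4) (log2 fold 1.29, SE 0.10, adjusted p = 8.70e-34). Kcnip4 was lower by a log2 fold of -1.07, which became -0.975 with RLE size factors. Kcnh8 (-1.18) was not called by DESeq2 (adjusted p = 0.0514), and Kcnip2 (KChIP2, -1.97) not by DESeq2 (0.301) or without vehicle 1, vehicle 2 or ImP 4.

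Gal neurons (197 nuclei, galanin) had 2 of 77 genes called, both lower, against 1.06% of all genes, and 1 without vehicle 1. Kcnmb2 averaged 32.0 CPM against 70.3 CPM in other neurons (log2 fold -1.31, SE 0.24), and Kcnip4 2647 against 4906 CPM (log2 fold -1.01, or -0.93 with RLE size factors). Nts neurons (234 nuclei, neurotensin) had 3 of 77 called, all lower, against 1.73% of all genes, and 1 without vehicle 1. Kcnmb2 (-1.62) measured 0, 11.4, 21.6 and 56.6 CPM, and DESeq2 did not call it (adjusted p = 0.423). Kcng2 (-2.76) and Kcnmb4 (-1.45) were not called by DESeq2 either (0.283 and 0.367). Tac2 neurons (159 nuclei, tachykinin 2) had 1 of 78 called, against 0.640% of all genes, namely Kcnh8 at 73.1, 207, 140.3 and 194 CPM (log2 fold 1.22, SE 0.16). Without vehicle 2 its log2 fold was 0.92 and no gene was called, and without ImP 3 the count was 2.

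The last comparison was ImP against vehicle within each class, and no potassium channel gene passed an adjusted p of 0.05 in any of them over all 4 libraries, with edgeR fitted without a block and with its count filter or with DESeq2. In all nuclei 0 of 82 genes were called, against 0.00470% of all genes, with 4 at an unadjusted p under 0.05. In these sums over all nuclei a change in the number of cells of a type and a change in RNA per cell cannot be told apart. In neurons 0 of 82 were called (0.00493% of all genes, 4 unadjusted), in GABAergic neurons 0 of 76 (0.0180%, 5 unadjusted) and in glutamatergic neurons 0 of 66 (0.119%, 5 unadjusted). In astrocytes 0 of 38 were called (0%, 4 unadjusted), in oligodendrocytes 0 of 42 (0%, 5 unadjusted), in precursors 0 of 36 (0.999%, 3 unadjusted) and in microglia 0 of 6 (0.141%, 0 unadjusted). Without ImP 3, which leaves ImP 4 as the only ImP library and assumes that it varies like the vehicle libraries, 2 genes were called in neurons (4.48% of all genes), 3 in GABAergic neurons (3.76%), 1 in oligodendrocytes (3.71%) and 1 in precursors (1.11%). Without vehicle 2 there was 1 in glutamatergic neurons (1.73%) and 1 in precursors (1.64%), and without the count filter 1 in glutamatergic neurons (0.620%). Pituitary markers were highest in ImP 4 in every class, and their part in the ImP values was not tested. Leaving out ImP 4 leaves ImP 3 as the only ImP library, so the fit without it cannot show that part.

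The fitted differences were small in neurons, where 78 of 82 genes had log2 folds within 0.5 of 0, and 80 of 82 did so in all nuclei. The median SE was 0.11 in neurons and 0.33 in oligodendrocytes, so smaller differences could be seen in neurons than in glia. A p that misses the threshold does not show that the levels were equal.

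**Figure D4:**
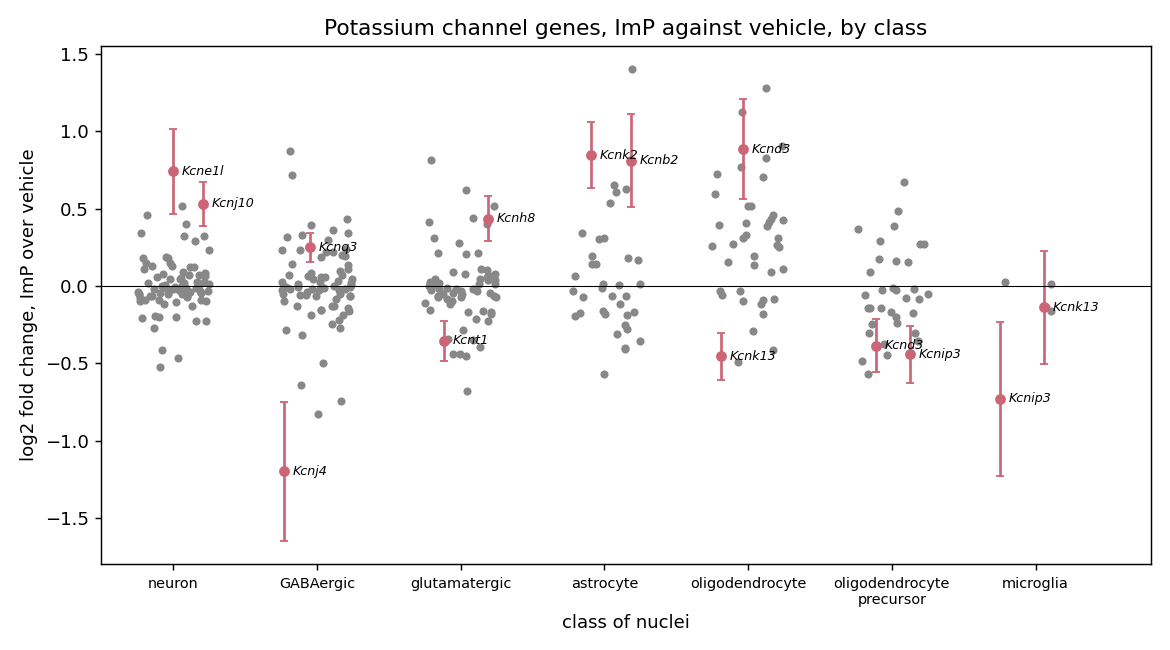
Log2 fold change of ImP over vehicle (vertical axis) of each tested potassium channel gene, 1 point per gene, in 7 classes of nuclei (horizontal axis), with the 2 genes of smallest p in each class named and shown with their standard error. None passed an adjusted p of 0.05 in these fits without a block, and most neuronal points lie within 0.5 of 0.

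In neurons Kcnj10 had the smallest p, at 6.13, 7.54, 10.1 and 9.36 CPM (log2 fold 0.53, SE 0.14, adjusted p = 0.326). Both ImP values were above both vehicle values. The 10 astrocyte markers measured in the same neurons summed to 173, 192, 255 and 231 CPM and the 10 oligodendrocyte markers to 252, 324, 429 and 405 CPM, also higher in both ImP libraries, and their part in the Kcnj10 values was not tested.

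Kcnh8 measured 54.4, 61.8, 62.0 and 81.2 CPM in neurons (log2 fold 0.32, SE 0.14, adjusted p = 0.661) and 40.7, 47.1, 51.8 and 65.8 CPM in glutamatergic neurons (log2 fold 0.44, SE 0.14, adjusted p = 0.379). ImP 4 was the highest in each, and without ImP 3 the adjusted p in neurons was 0.00217. Kcnt1 measured 55.2, 58.0, 46.7 and 50.2 CPM in neurons (log2 fold -0.20, SE 0.08, adjusted p = 0.577), with both ImP values lower. The other neuronal genes of the 5 smallest p in each direction were Kcne1l (0.74), Kcnk1 (0.19) and Kcnf1 (a silent subunit, 0.34), and Kcnj9 (-0.23), Kcnq1 (-0.46), Kcns3 (-0.27) and Kcnk6 (-0.53), all at adjusted p of at least 0.569. Without ImP 3, Kcnq1 had an adjusted p of 0.0264. In GABAergic neurons Kcnq3 measured 324, 384, 406 and 429 CPM (log2 fold 0.25, SE 0.09, adjusted p = 0.526, or 0.0262 without ImP 3).

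In astrocytes Kcnk2 (TREK-1) measured 36.6, 33.3, 58.7 and 66.7 CPM (log2 fold 0.85, SE 0.21, adjusted p = 0.208), and Kcnb2 had a log2 fold of 0.81 (SE 0.30, adjusted p = 0.394). Both ImP values exceeded both vehicle values for each. The 8 neuron markers in the same astrocytes summed to 1845, 2374, 2392 and 2721 CPM and the 10 oligodendrocyte markers to 653, 868, 1097 and 963 CPM, both higher in the ImP libraries, and their part was not tested. In precursors Kcnip3 had a log2 fold of -0.44 (SE 0.19, adjusted p = 0.362) and its groups overlapped. The 10 oligodendrocyte markers in the same precursors summed to 614, 690.4, 899 and 830 CPM, higher in both ImP libraries, and their part was not tested. Without ImP 3 its adjusted p was 5.27e-04, and without vehicle 2 it was 0.0344. In microglia Kcnip3 had one of -0.73 (SE 0.50) and Kcnk13 one of -0.14 (SE 0.36), which was 0.77 without vehicle 1.

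In oligodendrocytes Kcnk13, at the 336, 299, 238 and 231 CPM given above, had a log2 fold of -0.45 (SE 0.15, adjusted p = 0.372), and Kcnd3 measured 8.37, 10.8, 16.3 and 19.7 CPM (log2 fold 0.89, SE 0.325, adjusted p = 0.389). Of the 42 potassium channel genes tested there, 30 had a log2 fold above 0, or 71.4%, against 49.3% of all genes, and the median was 0.29 against -0.01. In the same oligodendrocytes the 8 neuron markers summed to 1899, 2307, 2270.4 and 2659 CPM, which overlapped between the groups, and the 10 astrocyte markers to 510.2, 592, 699 and 679.8 CPM, higher in both ImP libraries. Their part was not tested. Kcnd2, which was lower in oligodendrocytes than in neurons, was among the 30, at a mean of 88.1 CPM in vehicle and 119 CPM in ImP.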

How the data were processed

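The tools named, per the submitters' processing notes, were Cell Ranger 8.0.1 and Seurat 5.0.0, and the build was GRCm39. Which gene annotation was used, and whether introns and strand entered the counting, is not given in the sources used here. Of the 81 potassium channel genes found in RefSeq (GRCm38.p6), 38 overlap another gene. Their reads may not be separated, also where this is not said beside the gene. The deposited matrices hold whole-number UMI counts per gene and barcode. The 4 libraries held 48060194, 49291659, 49508252 and 51945297 UMIs.

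Nuclei with at least 500 genes and at most 5% mitochondrial UMIs were kept, and doublets were treated only by leaving out nuclei with markers of another class. Glial classes needed 4 of their listed markers (oligodendrocytes 5) and at most 0.5% neuron-marker UMIs, neurons 3 of 8 markers and at least 1% of UMIs. Neuron types needed between 3 and 8 UMIs of their peptide or enzyme gene, and transmitter classes 2. UMIs were summed per class and library and tested with edgeR 4.0.16 (TMM, filterByExpr with a minimum count of 10, quasi-likelihood test, Benjamini-Hochberg adjustment over all genes tested). Comparisons between classes had the library as a block and needed 2-fold. ImP against vehicle had neither. Alternatives were RLE factors, DESeq2 1.42.0, no count filter, a stricter gate, mixed nuclei kept, no fold minimum, each library left out, and a block. The test was checked on simulated counts. Genes were named as up to 6 called in each direction per class comparison at 10 CPM or more, the smallest p for ImP, and a list of widely studied channel genes. The potassium channel genes and lists were chosen with earlier results of these data known. Results for some genes are not reported here by name, though all counts include them.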

Additional observations from a re-analysis of the deposited data

Results flagged for a closer look

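Some potassium channel genes had ImP libraries on opposite sides of the vehicle libraries in different classes, with no overlap within either class. None of these differences between classes was tested, and none of the genes passed the test of ImP against vehicle within a class. With 2 libraries a group such separation was common. In oligodendrocytes 17 of 42 tested genes had both ImP values above both vehicle values and 4 had both below. In astrocytes these were 8 and 6 of 38, in precursors 4 and 9 of 36, and in neurons 13 and 17 of 82. No share over all genes is given, so whether these counts are particular to potassium channel genes was not tested. Kcnk13 had a log2 fold of 1.40 in astrocytes, where it had 35 UMIs in all, -0.45 in oligodendrocytes and -0.57 in precursors. Kcnd3 had one of 0.89 in oligodendrocytes and -0.39 in precursors. Kcnb2 had one of 0.81 in astrocytes and 0.41 in oligodendrocytes against -0.01 in neurons. Kcnj9 had one of 0.52 in oligodendrocytes and -0.23 in neurons. Neuron markers in astrocytes and oligodendrocytes were lowest in vehicle 1, at 1845 and 1899 CPM, and highest in ImP 4, at 2721 and 2659 CPM.

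Among genes below the minimum of 10 UMIs per library, 2 stood out in a class. Kcnj8 (Kir6.1, the pore of the vascular ATP-sensitive channel) had 58 UMIs over all files, of which 7 lay in 7 of 46 mural nuclei, the contractile and support cells of vessel walls. That is 122 CPM against 0.136 CPM in neurons, and 0 UMIs were seen in 42 endothelial nuclei. Kcnk5 (TASK-2) had 57 UMIs, of which 18 lay in 17 of 4360 oligodendrocytes, at 2.71 CPM against 0.058 CPM in neurons. These counts are too low for a test.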

How the results depend on the processing

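Of 114 named differences between classes or neuron types, 89 kept their direction and call under every alternative run, and 25 lost the call under at least 1 (67 of 1106 values). None reversed. Of 24 named ImP differences (238 values), 14 were unchanged in call, 9 passed the threshold under at least 1 alternative, and Kcnk13 in microglia reversed without vehicle 1 (log2 fold 0.77, and -0.80 without vehicle 2). Why calls changed was not tested.

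Counts of called potassium channel genes moved by over 1.5 times as follows. With no fold minimum they were 32 between GABAergic and glutamatergic neurons (2 with it), 23 in Hcrt (15), 21 in Pmch (13), 28 in Avp (16), 26 in Oxt (16), 10 in Sst (3), 15 in Trh (5), 9 in Gal (2), 7 in Nts (3) and 6 in Tac2 neurons (1), and 9 between Avp and Oxt (3). With DESeq2 they were 1 by transmitter, 8 in Pmch, 9 in Oxt, and 1 each in Trh, Gal and Nts. RLE factors gave 1 in Gal, the stricter gate 1 by transmitter, and no count filter 5 between Avp and Oxt and 1 for ImP in glutamatergic neurons. Leaving out each library in turn gave 1 to 3 by transmitter, 9 to 14 in Hcrt, 8 to 11 in Pmch, 3 to 6 in Trh, 1 to 2 in Gal, 1 to 3 in Nts and 0 to 2 in Tac2. For ImP it gave 0 to 2 in neurons, 0 to 3 in GABAergic neurons, and 0 to 1 in glutamatergic neurons, oligodendrocytes and precursors.

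The libraries' names open with 111 or 113, 1 of each per group. The labels do not say what the number means, and same-numbered libraries deviated together with correlations of 0.077 to 0.296 over genes by class. With this number as a replicate block, 3 potassium channel genes passed for ImP in neurons, against 5.35% of all genes (Kcnj10 at an adjusted p of 0.0103, Kcnh8 at 0.00246, Kcnt1 at 0.0483). In GABAergic neurons 2 passed, against 4.03% (Kcnq3 at 0.00237, Kcnh8 at 2.59e-04), in glutamatergic neurons 2, against 2.33% (Kcnip4 at 0.0262, Kcnh8 at 0.0321), and in oligodendrocytes 2, against 4.99% (Kcnk13 at 0.0146, Kcnab1 at 0.0326). In astrocytes 1 passed, against 3.62% (Kcnk2 at 0.00374), and in precursors 1, against 2.21% (Kcnip3 at 0.0281).

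DESeq2 moved the median of all genes by 0.215 in microglia, 0.166 in Hcrt, 0.121 in Sst and 0.105 in Tac2 neurons on the log2 scale. The stricter gate could not be fitted for Pmch, Hdc, Sst, Trh, Gal, Nts and Tac2 neurons. Depth limits microglia most, with 540692 UMIs, against 154637436 in neurons.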
